A study of Mus musculus with 10 samples.

Results

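The genes described here carry glucose and lactate across the cell membrane, break glucose down to pyruvate and lactate, and build or degrade glycogen in the mouse heart. Members were the rows of the deposited expression table whose gene name is on a list of 33 genes of these pathways, which gave 34 of 55858 rows, since Aldoa names 2 rows. The list was compared between hearts of 5 cKO mice and 5 control mice, all labelled MCM; Chmp4bF/F and all taken at postnatal day 10. The cKO mice received tamoxifen at 0.1 mg/g under the skin on 2 days from postnatal day 0, to remove Chmp4b, a subunit of the membrane-cutting ESCRT-III complex. The control mice carried the same alleles, MCM included, and received corn oil. An effect of tamoxifen, by itself or together with MCM, therefore cannot be told apart from loss of Chmp4b. The labels do not spell out MCM or the cells in which it acts, and whole hearts were measured, so values are sums over all cell types of the organ.

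Glucose enters heart muscle cells through the insulin-responsive transporter GLUT4, encoded by Slc2a4, and through the basal transporter GLUT1, encoded by Slc2a1. Hexokinase traps it as glucose 6-phosphate, which runs down the glycolytic enzymes to pyruvate and lactate or is stored as glycogen. Most of these steps are encoded by several genes, of which striated muscle favours some (Pfkm, Pgam2, Eno3, Pygm, Slc2a4) while fetal and many other tissues favour others (Hk1, Pfkp, Eno1, Pygb, Slc2a1). Around birth the heart turns from glucose and lactate towards fatty acids as fuel, and the muscle isoforms become the main ones.

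Values were deposited as TPM, an abundance per transcript length in which every library sums to 1000000, so read depth is unknown. Mitochondrially encoded genes took 35.5% to 41.5% of TPM in cKO libraries and 50.0% to 59.4% in control libraries, and the median of the 13282 tested genes was 0.63 higher in cKO on the log2 scale. Each library was therefore also divided by a size factor (the median ratio of its genes to their geometric mean over libraries). Those values are called scaled TPM here. A scaled log2 difference is one between scaled TPM values, and is thus measured against the median gene rather than against a fixed total. Chmp4b had 29.3 ± 1.37 scaled TPM in cKO and 60.5 ± 6.47 in controls (SD, n = 5 each, exact permutation p = 0.00794, the smallest that 5 against 5 allows). As deposited it had 38.2 ± 1.42 TPM in cKO against 47.4 ± 8.61 TPM in control hearts (exact permutation p = 0.0476). The groups then overlapped (36.33 to 39.96 TPM in cKO, 36.59 to 58.57 TPM in control), while in scaled TPM they did not. Xist, the transcript of the inactive X chromosome, was above 1 TPM in 3 of 5 cKO libraries (replicates 1, 5 and 7) and in 0 of 5 control libraries, so sex was not balanced. In scaled TPM, 10 of 10 macrophage markers rose, with sums from 338 to 491 in cKO and from 100 to 114 in control libraries. Of 10 fibroblast markers 8 rose and 1 fell (sums from 1915 to 2311 in cKO, 1346 to 1653 in control). On the same scale 10 of 10 cardiomyocyte markers fell (26050 to 33370 in cKO, 49830 to 52890 in control), and so did 10 of 10 endothelial markers (378 to 483 in cKO, 623 to 686 in control). None of the 5 tested erythroid markers was called, with sums of 1319 to 7182 in cKO libraries and 4357 to 7004 in controls. Of 7 tested skeletal muscle markers 1 fell, namely Acta1 (mean 44.8 in cKO and 84.6 in control), and 6 were not called. Their sums were 63.7 to 95.1 in cKO libraries and 101 to 161 in controls, with Acta1 the largest part by mean in both groups. Myod1 was under 1 TPM and Pax7 at 0 in every library. Neither of the 2 tested neutrophil markers was called, with sums of 9.82 to 33.5 in cKO libraries and 7.85 to 30.1 in controls. As deposited, 10 of 10 macrophage and 10 of 10 fibroblast markers rose. Cardiomyocyte markers then fell in 3 cases and rose in 1 (sums 36160 to 40150 in cKO, 36190 to 44730 in control). Endothelial markers fell in 0 and rose in 1 (498 to 581 in cKO, 469 to 573 in control). Acta1 was not called as deposited (limma adjusted p = 0.448), while 2 other skeletal muscle markers rose. The part of these cell types and of sex in the differences below was not tested beyond the values given. Fewer cells of a type and less RNA per cell cannot be told apart.

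In scaled TPM, the 5 fetal or ubiquitous isoforms (Hk1, Pfkp, Eno1, Pygb and Slc2a1) all rose, with a median log2 difference of 0.31. The 5 muscle isoforms (Pfkm, Pgam2, Eno3, Pygm and Slc2a4) all fell, with a median of -1.09. As deposited, the 5 fetal or ubiquitous isoforms rose as well (median 1.05), 4 of the 5 muscle isoforms fell (median -0.35), and Pygm rose. With TPM closed again without mitochondrially encoded genes, Pygm was not called (log2 difference -0.05, limma adjusted p = 0.447). The median over all 13282 tested genes was 0.01 in scaled TPM. Over all members, limma with a Benjamini-Hochberg adjusted p under 0.05 called 12 of 33 tested rows higher (36.4%) and 13 lower (39.4%) in scaled TPM. Of all tested genes, 41.6% were called on that scale, 20.8% higher and 20.8% lower. As deposited, 23 of 33 members were higher (69.7%) and 6 lower (18.2%). Of all tested genes, 80.0% were called as deposited, 76.5% higher and 3.46% lower.

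Under all 4 scalings that were run, 12 members were higher, namely Slc2a1, Slc16a3, Hk1, Gpi1, Pfkp, Aldoa, Aldoc, Pgam1, Eno1, Gyg, Gbe1 and Pygb. Lower under all 4 were 6 members, namely Slc2a4, Pfkm, Pgam2, Eno3, Ldhb and Gys1. The same 12 and 6 members were those higher and lower on both scales, scaled and deposited. Of all genes, 20.8% were higher and 3.46% lower on both. The share of all genes over the 4 scalings was not counted. Tpi1, Ugp2 and Pygm were higher as deposited and lower when scaled, which 6.0% of all genes were. Slc16a1, Hk2, Pfkfb1 and Pfkfb2 were lower when scaled alone. Pfkl, Pfkfb3, Gapdh, Pgk1, Eno2, Pkm, Ldha and Phka1 were higher as deposited alone. Scaled values of cKO and control hearts did not overlap for 11 members that were higher and 12 that were lower, against 15.8% and 15.5% of all tested genes. Aldoc reached 1 TPM in 0 and Eno2 in 1 of 5 control libraries, so they entered the test through the cKO libraries. Aldoc is counted among the 12 higher and the 11 higher without overlap, and Eno2 among the 23 higher as deposited. Both are given as a description and not as support for a rise. The second Aldoa row (ENSMUSG00000114515.3) stayed at or below 1.56 TPM in every library and was not tested. Without the 3 cKO libraries that had Xist, 8 members were higher and 12 lower. Hk1, Aldoa, Pgam1 and Pfkfb1 were then no longer called and Aldoc was under the filter. In that comparison 11.4% of all tested genes were called higher and 14.8% lower, fewer than the 20.8% in each direction with all libraries.

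**Figure D1:**
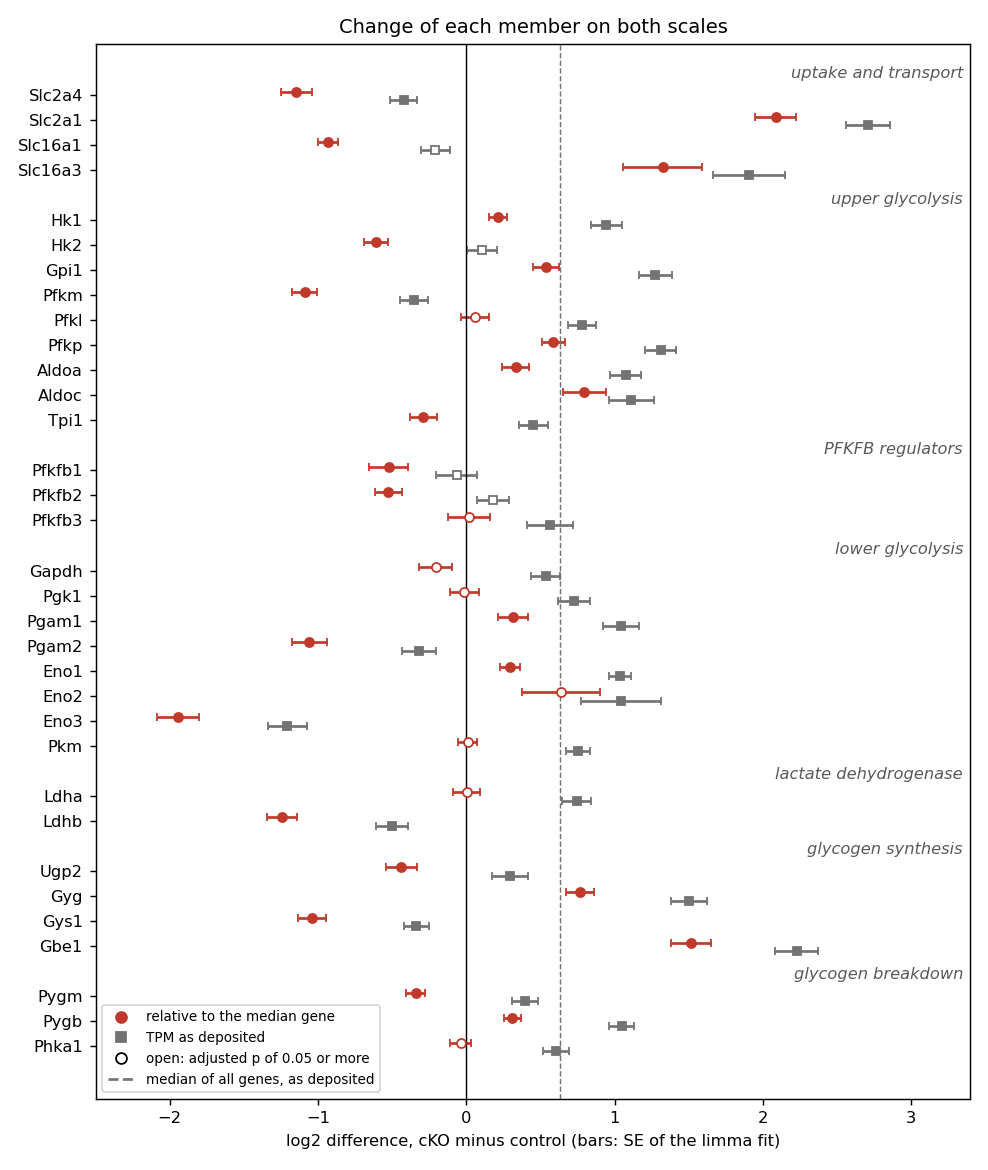
Log2 difference, cKO minus control, of the 33 tested members, grouped by pathway step. Red circles are scaled TPM (relative to the median gene) and grey squares are TPM as deposited. Bars are the SE of the limma fit, open symbols have an adjusted p of 0.05 or more, and the dashed line is the median of all tested genes as deposited (0.63). Slc2a1 (2.09) and Gbe1 (1.51) lie farthest to the right and Eno3 (-1.95) farthest to the left in scaled TPM.

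The 250 bases before the start site are shown for Slc2a1, the member with the largest rise, and for Eno3, the member with the largest fall. The mutase pair Pgam1 and Pgam2 is shown as an example of a pair whose genes moved in opposite directions on both scales. The pairs Slc2a1 and Slc2a4, Pfkp and Pfkm, and Eno1 and Eno3 did so as well. Sequences and start sites are those of RefSeq on GRCm38.p6, and sequences read 5′ to 3′ on the strand of the gene. Gene positions given elsewhere are those of GENCODE M21, whose starts can differ. The Slc2a1 window, which ends at 119108744, runs past the GENCODE start of that gene at 119108711. Of the 33 genes 32 were found there, and Slc2a4 was not. Capitals mark matches, on either strand, to ACGTG or GCGTG, the core letters bound by hypoxia-inducible factors.
Slc2a1 (chr4:119108495-119108744, plus strand): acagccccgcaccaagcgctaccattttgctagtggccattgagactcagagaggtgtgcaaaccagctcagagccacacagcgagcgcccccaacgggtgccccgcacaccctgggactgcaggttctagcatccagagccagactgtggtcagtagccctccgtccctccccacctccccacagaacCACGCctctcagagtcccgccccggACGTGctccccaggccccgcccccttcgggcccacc
Pgam1 (chr19:41911621-41911870, plus strand): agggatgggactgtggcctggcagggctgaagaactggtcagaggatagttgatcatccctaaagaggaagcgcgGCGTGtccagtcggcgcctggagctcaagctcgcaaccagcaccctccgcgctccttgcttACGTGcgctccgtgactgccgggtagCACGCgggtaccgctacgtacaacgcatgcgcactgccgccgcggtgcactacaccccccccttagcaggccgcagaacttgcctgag
Pgam2 (chr11:5803797-5804046, minus strand): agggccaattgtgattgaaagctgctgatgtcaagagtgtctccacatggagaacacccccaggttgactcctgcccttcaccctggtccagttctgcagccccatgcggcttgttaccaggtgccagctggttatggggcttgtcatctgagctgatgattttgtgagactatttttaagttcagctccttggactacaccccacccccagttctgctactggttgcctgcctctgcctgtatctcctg
Eno3 (chr11:70656926-70657175, plus strand): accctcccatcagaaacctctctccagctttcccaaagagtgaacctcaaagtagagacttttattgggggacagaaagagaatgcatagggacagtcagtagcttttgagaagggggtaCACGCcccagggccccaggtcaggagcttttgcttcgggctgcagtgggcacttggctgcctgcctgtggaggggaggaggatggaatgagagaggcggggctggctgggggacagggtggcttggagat
The Slc2a1 window held 2 matches, beginning 61 and 36 bases before the start site, the Pgam1 window 3 (175, 114 and 88 bases before), the Eno3 window 1 (130 bases before) and the Pgam2 window 0. At least 1 match stood in 14 of 18 start sites (77.8%) of the 12 genes higher on both scales. The same held for 5 of 8 start sites (62.5%) of the 5 matched genes lower on both scales. Gbe1 and Gpi1, both higher, had no match, and Pfkm, which was lower, had a match in 3 of its 4 start sites. A match stood in 36 of 50 start sites (72.0%) of all matched members and in 38.6% of all 32851 start sites of the table. Several start sites of 1 gene were counted separately. Also searched was CTA, then any 4 bases, then TAG, a simplified form of the letters bound by the muscle factor MEF2. This string reads the same on both strands. It was found in 0 of the 18 start sites of genes higher and 1 of the 8 of genes lower on both scales. The 1 was that of Ldhb. Of all start sites 3.2% held it. None of the 4 windows shown held it, but ctatttttaa in the Pgam2 window differs from it only in the last letter. Other forms of the MEF2 letters were not searched, so these counts do not cover them. Absence of this string, in the Pgam2 window too, therefore does not mean that MEF2 letters are absent. These matches are short letter strings and do not show binding, and the start sites compared were not matched for base composition.

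At the membrane, the basal glucose transporter gene Slc2a1 (ENSMUSG00000028645.12, chr4:119108711-119137983) rose. It had 27.1, 19.3, 22.5, 14.7 and 22.5 TPM in cKO replicates 1, 3, 5, 6 and 7, against 2.03, 1.86, 2.71, 2.36 and 2.82 TPM in control replicates 4, 6, 8, 9 and 13. Every cKO heart stood above every control heart, with replicate 6 the lowest of the cKO group. Its scaled mean was 5.32-fold that of controls, at 16.2 ± 2.86 in cKO and 3.05 ± 0.657 in controls (SD, n = 5; scaled log2 difference 2.09 ± 0.14 SE, limma adjusted p = 8.06e-07). The insulin-responsive transporter gene Slc2a4 (ENSMUSG00000018566.15) fell, with 31.3, 35.1, 35.4, 41.6 and 34.4 TPM in cKO and 46.4, 47.8, 46.2, 53.3 and 45.7 TPM in control hearts. The groups did not overlap on either scale, and the scaled log2 difference was -1.15 (limma adjusted p = 6.35e-06). As deposited the log2 difference was -0.42 (limma adjusted p = 0.000771). The level of Slc2a4, which TPM gives per transcript length, was 1.78 ± 0.635 times that of Slc2a1 in cKO hearts and 20.9 ± 4.08 times in control hearts (SD, n = 5).

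Of the monocarboxylate carriers, which move lactate and pyruvate together with a proton, Slc16a3 (MCT4, the carrier of glycolytic cells) rose and Slc16a1 (MCT1) was lower in scaled TPM alone. Slc16a3 had 5.93, 8.07, 15.1, 9.40 and 13.7 TPM in cKO replicates 1, 3, 5, 6 and 7, against 2.65, 1.16, 2.37, 2.78 and 1.08 TPM in control replicates 4, 6, 8, 9 and 13. The groups did not overlap, while the cKO hearts spread widely among themselves, lowest in replicate 1. Its scaled log2 difference was 1.33 ± 0.27 SE (limma adjusted p = 0.00185). Slc16a1 had 38.4 ± 1.38 TPM in cKO and 44.9 ± 6.27 TPM in controls (SD, n = 5; limma adjusted p = 0.0685), and a log2 difference of -0.93 in scaled TPM (limma adjusted p = 1.29e-06).

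**Figure D2:**
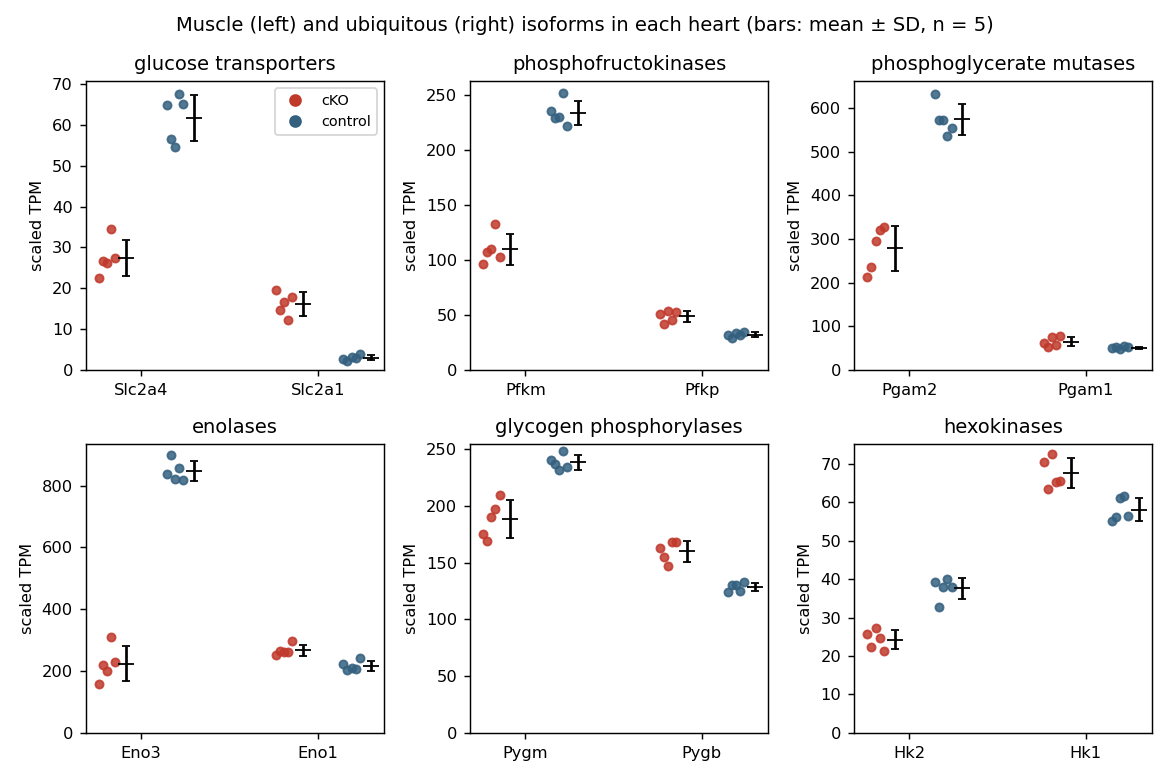
Scaled TPM of muscle and ubiquitous isoforms in each heart, with cKO in red and control in blue, 1 point per heart, and bars giving mean ± SD (n = 5). Within each pair the isoform on the left fell (Slc2a4, Pfkm, Pgam2, Eno3, Pygm and Hk2) and the isoform on the right rose (Slc2a1, Pfkp, Pgam1, Eno1, Pygb and Hk1) on this scale, while as deposited Pygm rose and Hk2 was not called.

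In the upper part of glycolysis, Hk1, the hexokinase found in most tissues, had 98.0, 83.8, 97.8, 78.4 and 82.6 TPM in cKO and 39.5, 47.4, 51.8, 48.8 and 39.6 TPM in control hearts. Its scaled rise was small, at 67.5 ± 3.91 in cKO and 58.1 ± 3.04 in controls (SD, n = 5; scaled log2 difference 0.21, limma adjusted p = 0.0136). It was not called without the cKO libraries with Xist (log2 difference 0.15, limma adjusted p = 0.184). Hk2, the insulin-regulated hexokinase of muscle, had 31.7 ± 4.30 TPM in cKO and 29.3 ± 2.45 TPM in control hearts, overlapping as deposited, and a scaled log2 difference of -0.61 (limma adjusted p = 9.39e-05). Gpi1, which turns glucose 6-phosphate into fructose 6-phosphate, rose on both scales (scaled log2 difference 0.54, limma adjusted p = 0.000494). It had 358 to 490 TPM in cKO and 147 to 192 TPM in control hearts.

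Phosphofructokinase, the committed step of glycolysis, is a tetramer of muscle (Pfkm), liver (Pfkl) and platelet (Pfkp) subunits. Pfkm fell, with 133, 142, 148, 160 and 130 TPM in cKO replicates 1, 3, 5, 6 and 7, against 169, 194, 195, 199 and 156 TPM in control replicates 4, 6, 8, 9 and 13. As deposited, cKO replicate 6 lay above control replicate 13. After scaling the groups were apart (110 ± 14.0 scaled TPM in cKO and 234 ± 11.2 in control; log2 difference -1.09 ± 0.08 SE, limma adjusted p = 1.89e-06). Pfkp rose, with 71.5, 55.8, 72.7, 54.9 and 66.3 TPM in cKO and 22.8, 24.7, 28.7, 25.5 and 24.2 TPM in control hearts. All cKO hearts were above all control hearts, and the scaled log2 difference was 0.59 (limma adjusted p = 0.000104). Pfkl had 34.9 ± 4.35 scaled TPM in cKO and 33.3 ± 3.02 in controls (SD, n = 5; limma adjusted p = 0.642).

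The bifunctional PFKFB enzymes set the level of fructose 2,6-bisphosphate, which activates phosphofructokinase. Pfkfb2, the heart isoform, was lower in scaled TPM (log2 difference -0.53, limma adjusted p = 0.000708). As deposited it stood at 20.4 ± 2.58 TPM in cKO and 17.9 ± 2.12 TPM in controls (SD, n = 5; limma adjusted p = 0.139). Pfkfb1 was scarce, at 1.41 to 2.19 TPM in cKO and 1.19 to 2.41 TPM in control hearts. Pfkfb3, an inducible isoform, had 2.87 to 5.21 TPM in cKO and 1.56 to 3.04 TPM in control hearts. In scaled TPM Pfkfb1 fell by 0.52 on the log2 scale (limma adjusted p = 0.00739). That call was lost without the cKO libraries with Xist (log2 difference -0.39, limma adjusted p = 0.152), with a Ddx3y term (limma adjusted p = 0.0627) and without mitochondrially encoded genes (limma adjusted p = 0.0557). Pfkfb2 was not called without mitochondrially encoded genes either (log2 difference -0.25, limma adjusted p = 0.0771). Pfkfb3 was not called in scaled TPM (log2 difference 0.02, limma adjusted p = 0.926).

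Of the enzymes that split fructose 1,6-bisphosphate, Aldoa (ENSMUSG00000030695.17), the muscle aldolase, rose on both scales, with 1399 to 1861 TPM in cKO and 634 to 803 TPM in control hearts (scaled log2 difference 0.33, limma adjusted p = 0.0117). Without the cKO libraries with Xist its log2 difference was 0.27 (limma adjusted p = 0.0501). Aldoc, the brain aldolase, had 1.87 ± 0.552 TPM in cKO and 0.311 ± 0.155 TPM in controls (SD, n = 5). Tpi1, which interconverts the triose phosphates, was higher by 0.45 as deposited and lower in scaled TPM (log2 difference -0.29, limma adjusted p = 0.0227). The scaled call was lost without any of cKO replicates 1, 3 or 5 (limma adjusted p from 0.0568 to 0.0603) and with a Ddx3y term (limma adjusted p = 0.0688).

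In the lower part of glycolysis, the enolases differed most. Eno3 (ENSMUSG00000060600.16, chr11:70657202-70662513), the muscle enolase, fell to 220, 290, 269, 375 and 291 TPM in cKO replicates 1, 3, 5, 6 and 7, against 601, 759, 696, 676 and 575 TPM in control replicates 4, 6, 8, 9 and 13. No cKO heart reached the lowest control heart, and replicate 1 was the lowest and replicate 6 the highest of the cKO group. In scaled TPM the mean was 0.265 times that of controls (224 ± 56.2 in cKO and 846 ± 32.5 in control; log2 difference -1.95 ± 0.14 SE, limma adjusted p = 1.48e-06). Eno1, the enolase of most tissues, rose, with 351, 348, 353, 314 and 375 TPM in cKO and 161, 172, 179, 163 and 170 TPM in control hearts. Its scaled log2 difference was 0.30 (limma adjusted p = 0.0041) and the groups did not overlap. The retrogene Eno1b, a near copy of Eno1, stayed at or below 0.318 TPM in cKO and 0.906 TPM in control hearts. The ratio of Eno3 to Eno1 was 0.838 ± 0.214 in cKO hearts and 3.91 ± 0.391 in control hearts (SD, n = 5). Eno2, the neuronal enolase, had 1.40 to 5.72 TPM in cKO and 0.184 to 1.48 TPM in control hearts, and was not called in scaled TPM (limma adjusted p = 0.0736). It was called higher without cKO replicate 5 or 6 (limma adjusted p = 0.0499 each) or control replicate 9 (limma adjusted p = 0.0343). Eno2 reached 1 TPM in 5 of 5 cKO but only 1 of 5 control libraries, and so passed the filter through the cKO libraries. Its values and calls are thus given as a description and not as support for a rise.

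Phosphoglycerate mutase showed the same pair of directions. Pgam2, the muscle mutase, had 295, 311, 397, 387 and 412 TPM in cKO replicates 1, 3, 5, 6 and 7, against 453, 485, 486, 424 and 389 TPM in control replicates 4, 6, 8, 9 and 13. The ranges met as deposited, through control replicate 13, and were apart after scaling (278 ± 51.6 scaled TPM in cKO and 574 ± 36.2 in control; log2 difference -1.06 ± 0.12 SE, limma adjusted p = 2.85e-05). Pgam1, the mutase of most tissues, had 87.4, 70.9, 102, 68.9 and 97.6 TPM in cKO and 35.9, 44.1, 41.6, 43.6 and 37.0 TPM in control hearts. In scaled TPM the groups overlapped and the log2 difference was 0.32 (limma adjusted p = 0.0248). It was not called without cKO replicate 5, control replicate 4 or control replicate 8 (limma adjusted p from 0.0506 to 0.0614), and neither was it without the cKO libraries with Xist (log2 difference 0.10, limma adjusted p = 0.364).

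Gapdh, Pgk1 and Pkm were not called in scaled TPM and were higher as deposited. Gapdh, which couples the pathway to NADH, had 2108 ± 356 scaled TPM in cKO and 2412 ± 141 in controls (SD, n = 5; limma adjusted p = 0.154). Of all hearts left out singly, it was called lower only without cKO replicate 7 (log2 difference -0.30, limma adjusted p = 0.0122). Pgk1, the first enzyme of the pathway to yield ATP, had 279 ± 43.8 scaled TPM in cKO and 279 ± 15.0 in controls (SD, n = 5; limma adjusted p = 0.929). Pkm, which makes pyruvate, had 505 ± 32.8 scaled TPM in cKO and 501 ± 21.5 in controls (SD, n = 5; limma adjusted p = 0.907), and its splice forms M1 and M2 cannot be separated in gene totals. As deposited, the log2 differences of these genes were 0.53, 0.73 and 0.75. The members together took 0.949% ± 0.0934 of TPM in cKO and 0.678% ± 0.0526 in control libraries. Of the TPM outside mitochondrially encoded genes they took 1.56% ± 0.0986 in cKO and 1.52% ± 0.0430 in control libraries (SD, n = 5).

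Lactate dehydrogenase is built from the heart subunit, encoded by Ldhb, and the muscle subunit, encoded by Ldha, which favours lactate production. Ldhb fell, with 322, 336, 341, 399 and 393 TPM in cKO replicates 1, 3, 5, 6 and 7, against 484, 613, 541, 496 and 415 TPM in control replicates 4, 6, 8, 9 and 13. The groups did not overlap on either scale (277 ± 42.6 scaled TPM in cKO and 651 ± 50.6 in control; log2 difference -1.24 ± 0.10 SE, limma adjusted p = 3.33e-06). Ldha had 432 ± 65.7 scaled TPM in cKO and 427 ± 9.87 in controls (SD, n = 5; limma adjusted p = 0.985). As deposited it had 504 to 676 TPM in cKO and 300 to 362 TPM in control hearts. The ratio of Ldhb to Ldha was 0.643 ± 0.0720 in cKO and 1.52 ± 0.118 in controls (SD, n = 5).

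The genes of glycogen synthesis split in direction. Gbe1 (ENSMUSG00000022707.17, chr16:70313949-70569716), the branching enzyme, rose, with 61.8, 57.3, 78.7, 56.0 and 87.1 TPM in cKO replicates 1, 3, 5, 6 and 7, against 12.3, 17.3, 13.1, 14.9 and 10.9 TPM in control replicates 4, 6, 8, 9 and 13. The lowest cKO heart was above the highest control heart on both scales. In scaled TPM it had 52.4 ± 11.1 in cKO and 17.5 ± 2.18 in controls (SD, n = 5; log2 difference 1.51 ± 0.13 SE, limma adjusted p = 4.79e-06). Gyg, which encodes glycogenin, the protein primer of the glycogen particle, rose as well, with 185, 144, 161, 132 and 197 TPM in cKO and 50.2, 64.3, 61.3, 58.1 and 50.5 TPM in control hearts. No value of Gyg overlapped, and its scaled log2 difference was 0.77 (limma adjusted p = 5.58e-05). Gys1, the glycogen synthase of muscle, fell, with 15.7, 16.0, 17.8, 18.3 and 17.4 TPM in cKO and 21.7, 19.8, 23.6, 22.6 and 21.4 TPM in control hearts. The groups were apart on both scales, and the scaled log2 difference was -1.04 (limma adjusted p = 5.61e-06). Ugp2, which makes UDP-glucose, was higher by 0.30 as deposited (limma adjusted p = 0.0373) and lower in scaled TPM (log2 difference -0.44, limma adjusted p = 0.00537).

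**Figure D3:**
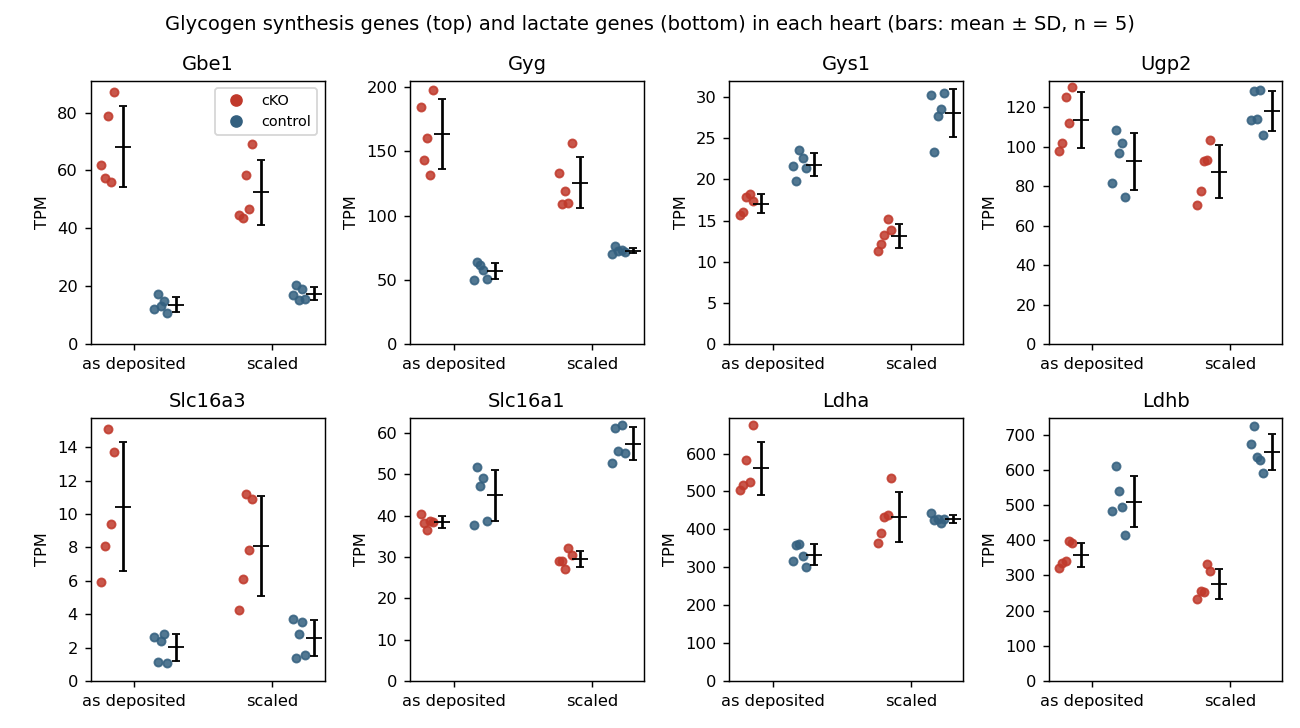
TPM as deposited and scaled TPM of glycogen synthesis genes (top row) and lactate genes (bottom row) in each heart, with cKO in red, control in blue and bars giving mean ± SD (n = 5). Gbe1, Gyg and Slc16a3 were higher in cKO on both scales, Gys1 and Ldhb were lower on both, and Ldha and Ugp2 change their position between the scales.

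In glycogen breakdown, Pygb, the brain isoform of glycogen phosphorylase, rose, with 226, 204, 198, 202 and 212 TPM in cKO and 89.1, 111, 111, 99.0 and 93.2 TPM in control hearts. The groups did not overlap on either scale (scaled log2 difference 0.31, limma adjusted p = 0.000841). Pygm, the muscle isoform, had 244, 223, 256, 238 and 264 TPM in cKO and 172, 200, 197, 197 and 164 TPM in control hearts. Its direction depended on the scale, with a log2 difference of 0.40 as deposited (limma adjusted p = 0.000942) and -0.34 in scaled TPM (limma adjusted p = 0.00146). There was no overlap in either case. Phka1, the muscle alpha subunit of the kinase that activates phosphorylase, had 6.18 ± 0.412 scaled TPM in cKO and 6.36 ± 0.437 in controls (SD, n = 5; limma adjusted p = 0.72).

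Shares within a family do not depend on how a library is scaled. Shares were compared in 10 families. Apart from Aldoc, which passed the filter through the cKO libraries alone and is given as a description, the groups did not overlap in 8 of 9. Each of the 8 had a two-sided exact permutation p = 0.00794, the smallest that 5 against 5 allows, and an exact permutation p = 0.00882 after Benjamini-Hochberg adjustment over the 10. Eno3 made up 44.9% ± 5.93 of enolase TPM in cKO and 79.5% ± 1.62 in control hearts. Slc2a4 made up 62.7% ± 7.42 in cKO and 95.3% ± 0.913 in control hearts of the TPM of both glucose transporters. Pfkm held 56.5% ± 3.57 of phosphofructokinase TPM in cKO and 78.1% ± 1.56 in control hearts. Ldhb held 39.1% ± 2.59 in cKO and 60.3% ± 1.81 in control hearts of lactate dehydrogenase TPM. Hk2 held 26.4% ± 1.17 in cKO and 39.3% ± 1.79 in control hearts of the TPM of Hk1 and Hk2. The muscle isoform was also a smaller share for Pygm, at 54.0% ± 2.01 in cKO and 64.9% ± 1.21 in control hearts, and for Pgam2, at 80.8% ± 2.84 in cKO and 91.7% ± 0.756 in control hearts. Slc16a3 rose to 21.1% ± 6.65 of the TPM of both carriers in cKO, against 4.32% ± 1.83 in control hearts. Aldoc held 0.118% ± 0.0245 in cKO and 0.0420% ± 0.0201 in control hearts of aldolase TPM. The share of Pfkfb2 was 79.4% ± 1.20 in cKO and 82.1% ± 2.23 in control hearts, with overlap (exact permutation p = 0.0556). Its difference was -3.26 percentage points without cKO replicate 6 (exact permutation p = 0.0476) and -3.65 without control replicate 9 (exact permutation p = 0.0159). All of these are mean ± SD with n = 5.

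**Figure D4:**
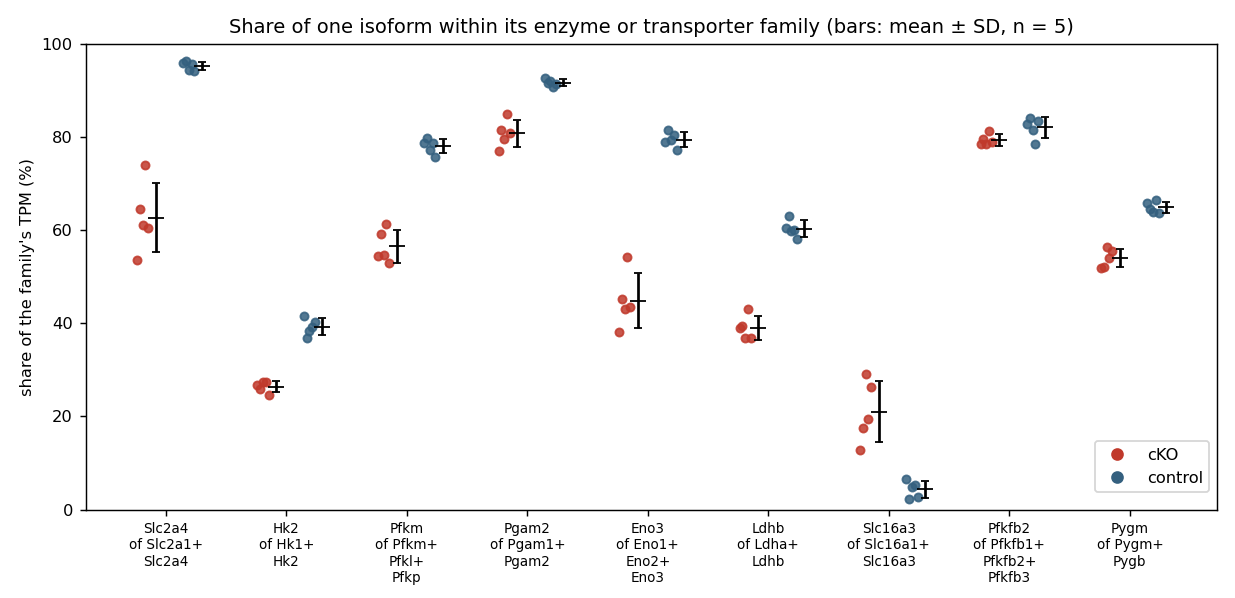
Share of a named isoform in the summed TPM of its family, in percent, for 9 of the 10 families (Aldoc, near 0, is left out), with cKO in red, control in blue and bars giving mean ± SD (n = 5). Every cKO heart lies below every control heart for Slc2a4, Hk2, Pfkm, Pgam2, Eno3, Ldhb and Pygm and above for Slc16a3, while the groups overlap for Pfkfb2.

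Among the cKO hearts, replicate 6 kept the largest share of Slc2a4 (73.9%), Pfkm (61.3%), Pgam2 (84.9%), Eno3 (54.4%) and Ldhb (43.2%), and was thus closest to the controls in these 5 families. The 2 cKO hearts without Xist (replicates 3 and 6) had higher shares than the 3 with Xist for Slc2a4 (64.5% and 73.9%, against 53.6% to 61.1%), Pfkm (59.3% and 61.3%, against 53.0% to 54.7%) and Pgam2 (81.5% and 84.9%, against 77.1% to 80.8%). The same held for Eno3 (45.3% and 54.4%, against 38.1% to 43.5%) and Ldhb (39.4% and 43.2%, against 36.8% to 39.0%). The hearts without and with Xist overlapped for Hk2 (26.0% and 27.5%, against 24.6% to 27.3%), Pygm (52.2% and 54.0%, against 51.9% to 56.4%) and Slc16a3 (17.5% and 19.5%, against 12.8% to 29.2%). Both hearts without Xist were still outside the control range in all 8 of these families. With them alone against the 5 controls, the difference in share was -29.7 percentage points for Eno3 and -26.1 for Slc2a4 (exact permutation p = 0.0476 each, the smallest that 2 against 5 allows).

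Set beside the cardiomyocyte markers, whose scaled log2 differences ranged from -1.69 (Ryr2) to -0.50 (Mybpc3) with a median of -0.92, Slc2a4, Pfkm, Pgam2, Ldhb and Gys1 lay within that range, Eno3 (-1.95) below it and Pygm (-0.34) above it. As deposited the same markers ranged from -0.97 to 0.24, and Eno3 (-1.21) was again below them. Whether Eno3 differs from the markers was not tested. The members that rose did so in hearts in which 10 of 10 macrophage markers rose (median scaled log2 difference 1.69) and 8 of 10 fibroblast markers rose (median 0.57). The share of the rise that lies in those cells was not tested.

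Of 79 further genes of glucose and glycogen metabolism and its control, 57 were tested, of which 9 were called higher (15.8%) and 21 lower (36.8%) in scaled TPM, with a median log2 difference of -0.10. Of all tested genes 20.8% were higher and 20.8% lower. As deposited, 39 were higher (68.4%) and 6 lower (10.5%), against 76.5% and 3.46% of all tested genes. Tbc1d1, a Rab-regulating protein of GLUT4 traffic, rose to 35.3 ± 3.78 TPM in cKO, against 7.12 ± 1.05 TPM in controls (SD, n = 5; scaled log2 difference 1.47, limma adjusted p = 2.08e-06). Hif1a, the oxygen-regulated transcription factor whose targets include many glycolytic genes, rose to 95.4 ± 7.24 scaled TPM in cKO, against 46.0 ± 1.41 in control hearts (log2 difference 1.03, limma adjusted p = 3.73e-07). Txnip, an arrestin-like inhibitor of glucose uptake, had 377 ± 45.4 TPM in cKO and 121 ± 37.7 TPM in control hearts (scaled log2 difference 0.96, limma adjusted p = 0.000646). The lysosomal glycogen-degrading enzyme Gaa and the AMP-activated kinase subunit Prkab2 also rose (scaled log2 differences 0.70 and 0.73). Gpd1, the glycerol 3-phosphate dehydrogenase that branches off glycolysis, fell to 7.36 ± 1.07 TPM in cKO, against 12.5 ± 1.89 TPM in control hearts (scaled log2 difference -1.36, limma adjusted p = 2.14e-06). Klf15, a factor that promotes Slc2a4 expression, and Phkg1, the muscle catalytic subunit of phosphorylase kinase, fell as well (scaled log2 differences -1.14 and -1.12, and -0.58 and -0.60 as deposited).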

How the data were processed

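RNA from whole hearts of 10 mice (5 cKO, 5 control, grouped by sample title) was sequenced. The authors deposited 1 table of TPM, which divides by gene length and by each library's total. The submitters' processing notes list build mm10 and, unordered, the tools STAR 2.7.1, HTSeq 0.11.2, DESeq2 1.22.2, Trimmomatic 0.32, bcl2fastq, Picard 1.96 and FastQC 0.11.7. Which gene lengths, annotation release and strandedness were used is not given in the sources used here. Hence overlapping and antisense genes could not be told apart and reads shared with near copies are uncertain. Read depth is unknown, and no counting interval is given. No pair of libraries was identical. The labels give no litter, batch or day.

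Values were tested as log2(value + 1), so changes of low genes are understated, for the 13282 genes that reached 1 TPM in 5 or more of the 10 libraries. TPM was divided by median-of-ratios size factors (16393 genes), and the deposited TPM was tested beside it. Tests used limma 3.58.1 under R 4.3.3 (mean-variance trend, two-sided, Benjamini-Hochberg over all tested genes, called under 0.05), a script also checked on simulated data. Family shares were compared by exact permutation tests. Positions are those of GENCODE M21 on GRCm38 (mm10), in which 92.1% of rows and all 34 members were found by gene ID without version. Every member is named, along with the 8 of the further pathway genes with the largest difference among those called in the same direction on both scales without overlap. Members, lists and tests were chosen with earlier results of these data known. Scalings, pseudocounts, filters, variance models, library weights, a Ddx3y term and left-out libraries were varied. Python 3.11.15 with numpy 2.4.6 and pandas 2.3.3 was used for tables.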

Additional observations from a re-analysis of the deposited data

Results flagged for a closer look

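Of 90 combinations of a quantity and a group that were searched, 3 held a heart far from the other 4 by Dixon's ratio (the gap to the nearest heart over the range, critical value 0.71), where chance gives about 5%. Gpi1 had 389 scaled TPM in cKO replicate 7 and 273 to 301 in the other cKO hearts (ratio 0.755). Eno1 had 298 scaled TPM in cKO replicate 7 and 253 to 264 in the other cKO hearts (ratio 0.761). Pfkfb1 had 1.66 scaled TPM in cKO replicate 3 and 1.09 to 1.20 in the other cKO hearts (ratio 0.815). Gpi1 and Eno1 were still called higher in scaled TPM without any single heart, with log2 differences from 0.45 to 0.58 and from 0.26 to 0.34.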

How the results depend on the processing

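Scaling moved most. As deposited, 23 members were higher and 6 lower, 1 of the 5 muscle isoforms was higher, and 39 further pathway genes were higher and 6 lower. With TPM closed again without mitochondrially encoded genes, 18 members were higher and 8 lower, and 23 further pathway genes were higher and 14 lower, while 45.7% of all tested genes were higher and 10.4% lower. As deposited, the sign turned for Hk2 (0.11), Tpi1 (0.45), Pfkfb2 (0.18), Gapdh (0.53), Pgk1 (0.73), Ugp2 (0.30), Pygm (0.40) and Phka1 (0.60). Without mitochondrially encoded genes it turned for Tpi1 (0.0047), Gapdh (0.0875), Pgk1 (0.28) and Phka1 (0.23), and with an upper-quartile factor for Pgk1 (0.0082). Library weights turned Pfkfb3 (-0.0016) and Ldha (-0.0187), and a Ddx3y term turned Pfkfb3 (-0.13), Pkm (-0.0164) and Ldha (-0.0383). Leaving out the cKO libraries with Xist turned Pfkfb3 (-0.16), Pkm (-0.0151) and Ldha (-0.0431). Leaving out single hearts gave log2 differences from -0.0798 to 0.0949 for Pfkfb3, -0.0987 to 0.0311 for Pgk1, -0.0094 to 0.043 for Pkm and -0.0759 to 0.0635 for Ldha. The Pfkfb2 share then differed by -3.65 to -2.25 points (exact permutation p from 0.0159 to 0.0952). A Ddx3y term left 9 members higher and 11 lower, with 15.0% of all tested genes higher and 15.7% lower. The cause was not tested. No paired analysis was possible because the groups share only 1 replicate number. The Xist alternative for shares was added after seeing the data. TPM keeps no depth, so the precision of low genes such as Aldoc, Eno2 and Pfkfb1 is unknown.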
